A study of Mus musculus with 12 samples.

Results

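Small structured RNA genes, 8 of the 38924 genes in the count tables, were followed through 12 libraries of mouse colon RNA. They are *Rmrp*, *Rpph1*, *Rn7sk*, *Vaultrc5*, *Terc*, *Gm26035*, *Gm24146* and *Gm22513*. The genes were chosen by their measured values, since several of them were low in the same APC Min/+ libraries described here. The genotype differences below are therefore a description, and counts of members past a threshold are not a test of them.

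The libraries came from the proximal colonic mucosa of 6 WT mice and 6 APC Min/+ mice. All were females of the C57BL/6 strain aged 6 weeks. APC Min/+ mice carry a truncating mutation in 1 copy of *Apc*, the tumor suppressor that restrains Wnt signaling, and WT mice carry none. The genotypes were kept in separate cages and the mice arrived in 3 shipments, so cage and genotype cannot be told apart, and the labels do not tie a mouse to its shipment. Total RNA was extracted, libraries made from it were sequenced in paired ends, and reads were counted per gene.

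RNA polymerase III (Pol III) makes short, folded, non-coding RNAs that work inside protein particles rather than as messages. The RNA of RNase P (*Rpph1*) trims transfer RNA precursors, the RNA of RNase MRP (*Rmrp*) acts on ribosomal RNA precursors, 7SK (*Rn7sk*) holds the elongation factor P-TEFb inactive, and vault RNA (*Vaultrc5*) is part of the vault particle. Telomerase RNA (*Terc*) and the spliceosomal U1 RNA are also small and folded, but are made by RNA polymerase II. These RNAs have no long poly(A) tail, and how much of them a library holds depends on how the library is made. The labels name only a standard Illumina protocol, and whether poly(A) RNA was selected or ribosomal RNA removed is not stated.

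The sequences show which of the members resemble other small RNA genes. They were read from the GENCODE M21 transcripts on GRCm38, 5′ to 3′, and longer genes are cut after 300 bases. Copies were sought only among genes annotated as misc_RNA, snRNA, ribozyme or scaRNA. Among these, no other gene matched at least 80% of the bases of the RNAs of RNase MRP (chr4:43492788-43493058, minus strand, 271 bp) and RNase P (chr14:50807449-50807767, minus strand, 319 bp). A long non-coding gene also named *Rmrp* overlaps the member on the same strand and is absent from the count tables.
Rmrp: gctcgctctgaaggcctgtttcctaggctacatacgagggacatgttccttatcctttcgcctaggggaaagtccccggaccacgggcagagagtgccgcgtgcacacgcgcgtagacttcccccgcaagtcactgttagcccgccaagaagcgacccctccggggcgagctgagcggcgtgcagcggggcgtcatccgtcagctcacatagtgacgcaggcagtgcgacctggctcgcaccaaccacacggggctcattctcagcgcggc
Rpph1: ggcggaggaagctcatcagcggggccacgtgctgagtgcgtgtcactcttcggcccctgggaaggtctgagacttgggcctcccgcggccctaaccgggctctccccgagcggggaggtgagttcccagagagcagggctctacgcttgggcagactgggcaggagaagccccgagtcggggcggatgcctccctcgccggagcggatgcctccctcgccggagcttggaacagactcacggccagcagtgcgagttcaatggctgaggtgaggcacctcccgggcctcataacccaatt

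*Rn7sk* lies at chr9:78175303-78175633 on the minus strand (331 bp), *Gm26035* at chrX:152923453-152923760 on the minus strand (308 bp) and *Gm24146* at chr5:139844930-139845250 on the plus strand (321 bp). In the copies, capitals mark the bases that were not matched to *Rn7sk* in a local alignment.
Rn7sk: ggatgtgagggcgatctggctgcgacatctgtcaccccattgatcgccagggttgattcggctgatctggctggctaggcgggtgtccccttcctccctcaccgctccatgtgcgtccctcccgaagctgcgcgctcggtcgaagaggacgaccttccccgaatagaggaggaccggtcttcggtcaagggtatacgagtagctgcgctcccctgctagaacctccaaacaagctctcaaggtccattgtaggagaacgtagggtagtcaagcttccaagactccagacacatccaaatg
Gm26035: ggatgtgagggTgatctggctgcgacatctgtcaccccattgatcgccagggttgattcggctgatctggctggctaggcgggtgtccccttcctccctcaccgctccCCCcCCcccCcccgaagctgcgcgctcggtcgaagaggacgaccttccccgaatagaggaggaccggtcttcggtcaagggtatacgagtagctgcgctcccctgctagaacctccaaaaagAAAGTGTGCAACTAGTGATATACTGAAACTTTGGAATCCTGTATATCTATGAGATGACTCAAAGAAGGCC
Gm24146: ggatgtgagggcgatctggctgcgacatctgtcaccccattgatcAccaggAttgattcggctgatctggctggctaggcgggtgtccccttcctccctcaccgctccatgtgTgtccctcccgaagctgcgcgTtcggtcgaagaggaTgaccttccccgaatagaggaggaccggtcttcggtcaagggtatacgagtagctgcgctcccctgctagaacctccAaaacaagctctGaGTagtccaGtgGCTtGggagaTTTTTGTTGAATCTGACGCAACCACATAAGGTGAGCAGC
Both copies follow 7SK closely at their start and leave it near their end. Over the first 220 bases *Gm26035* matched 213 and *Gm24146* matched 215. In the rest, *Gm26035* matched 10 of 88 bases and *Gm24146* matched 32 of 101. Reads from the first stretch of the 3 genes are hard to assign, and how reads with several matches were counted is not given in the sources used here.

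*Gm22513* (chr12:54696782-54696945, plus strand, 164 bp) is annotated as an snRNA. Of its 164 bases, 159 matched *Rnu1b1*, a U1 gene, and capitals mark the other 5.
Gm22513: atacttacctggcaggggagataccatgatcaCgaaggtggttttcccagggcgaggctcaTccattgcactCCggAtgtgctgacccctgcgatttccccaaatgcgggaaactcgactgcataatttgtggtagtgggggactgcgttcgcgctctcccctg
Among the annotated genes of the biotypes searched, 47 matched at least 80% of the U1 sequence. Counts were present for 17 of them, and *Gm22513* held 71.9% of the 1294 counts on this family. *Terc* (chr3:96414437-96414859, minus strand, 423 bp) is shown by its first 120 bases, with the template from which telomere repeats are copied in capitals.
Terc: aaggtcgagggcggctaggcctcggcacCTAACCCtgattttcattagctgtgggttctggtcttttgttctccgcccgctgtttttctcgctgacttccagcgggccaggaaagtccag

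Promoters of RNase P and RNase MRP sit beside protein-coding genes. *Parp2*, a DNA repair enzyme, starts 74 bp from *Rpph1* on the other strand, so the RefSeq promoter window of *Parp2* (GRCm38.p6, chr14:50807666-50807965, plus strand) spans the region upstream of *Rpph1*. It is shown because it holds letters of both the octamer and the TATA motif, marked in capitals.
Parp2: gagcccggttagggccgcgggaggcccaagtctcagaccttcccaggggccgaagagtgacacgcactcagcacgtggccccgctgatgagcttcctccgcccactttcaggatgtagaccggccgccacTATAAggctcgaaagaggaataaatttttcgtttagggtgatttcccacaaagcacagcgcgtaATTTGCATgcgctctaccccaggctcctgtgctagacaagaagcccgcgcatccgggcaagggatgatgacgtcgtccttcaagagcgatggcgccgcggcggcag
The octamer, ATGCAAAT or ATTTGCAT on the other strand, began 93 bases upstream of *Rpph1* and the TATAA match began 29 bases upstream. Over all 32851 RefSeq windows, 1.74% held the octamer and 24.9% held TATAA or TTATA. The window of *Ccdc107*, beside *Rmrp*, starts at chr4:43493115. It leaves out the bases directly upstream of *Rmrp*, which were not searched. Like that of *Parp2*, it held the octamer, 216 bases upstream of *Rmrp*, and TATAA 164 bases upstream. These are matches of letters and not shown to be sites of binding.

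Between 50313805 and 197914821 counts were present per library. A level of 3 counts, taken here as the floor of detection, corresponded to 0.0151 to 0.0560 CPM (counts scaled to library size and by TMM factors), and covers counting error only. All 10 markers of colon epithelium were detected in every library. *Hoxb13*, a gene of the distal colon, reached 378 CPM in the APC Min/+ mouse M10_2 and 275 CPM in another, M13_1, against 0.744 CPM at most in the other 10 mice, so values without these libraries are given below. *Apc* was at 154 to 239 CPM in WT mice and 164 to 216 CPM in APC Min/+ mice, and the counts do not separate the alleles.

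Every member other than *Terc* had an even count in all 12 libraries. Of the 20311 genes tested, 1667 genes (8.21%) had this property, and of the 1547 tested genes of at most 500 bp, 406 genes (26.2%). A sequenced fragment may thus have entered these counts as 2 reads, which would leave the number of fragments at 50% of the count. The number of observations behind each value below may be that much lower than the count.

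*Rmrp* was lower in APC Min/+ mice than in 5 of the 6 WT mice. The APC Min/+ mice had 0.123 CPM in M8_2, 0.141 in M10_2, 0.0602 in M18_2b, 0.177 in M13_1, 0.294 in M2_A and 0.434 in M20_1, from raw counts of 6 to 34. The WT mice had 0.897 CPM in M17_2, 0.596 in M19_1, 0.355 in M16_1, 7.50 in M18_2a, 7.46 in M17_1 and 2.03 in M18_b, from raw counts of 34 to 842. Only M20_1 reached into the WT range, above M16_1. Among the WT mice the lowest and the highest were farther apart than the genotypes' medians, which were 0.159 and 1.47 CPM. The log2 fold change, APC Min/+ over WT, was -3.97 with an SE of 0.81. In bulk tissue, fewer cells of a type and less RNA per cell cannot be told apart, here or for the other members.

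*Rpph1*, the RNA of the related RNase P, overlapped more between genotypes. It stood at 0.410 CPM in M8_2, 0.293 in M10_2, 0.241 in M18_2b, 0.133 in M13_1, 0.567 in M2_A and 0.715 in M20_1. In WT mice it stood at 0.710 CPM in M17_2, 0.327 in M19_1, 0.605 in M16_1, 3.78 in M18_2a, 7.31 in M17_1 and 2.16 in M18_b. The same 3 WT mice that were highest for *Rmrp* were the only ones above every APC Min/+ mouse. The other 3 WT mice lay within the APC Min/+ range. Its log2 fold change was -2.67 (SE 0.71). *Rmrp* was equal in M17_1 and M18_2a, whereas *Rpph1* was 1.94 times as high in M17_1 as in M18_2a.

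Proteins of both ribozymes showed small fold changes. All 12 genes of the list of RNase P and RNase MRP proteins were tested, 0 had an unadjusted p under 0.05 (quasi-likelihood test in edgeR), and the log2 fold changes lay between -0.15 and 0.02. *Pop1*, the largest shared subunit, stood at 5.95 ± 0.607 CPM in APC Min/+ and 6.14 ± 0.707 CPM in WT mice (SD, n = 6; FDR = 0.943 from edgeR). *Rpp30* stood at 8.33 ± 1.77 CPM and 8.196 ± 2.07 CPM in the same order (FDR = 0.985 from edgeR).

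*Rn7sk* was the most abundant member per length, with means of 3.97 RPKM (counts scaled to library size and gene length) in APC Min/+ and 32.7 RPKM in WT mice. It stood at 0.780 CPM in M8_2, 0.444 in M10_2, 1.14 in M18_2b, 0.729 in M13_1, 3.09 in M2_A and 1.69 in M20_1. In WT mice it stood at 2.69 CPM in M17_2, 2.63 in M19_1, 1.17 in M16_1, 22.1 in M18_2a, 33.1 in M17_1 and 4.78 in M18_b. Again M18_2a, M17_1 and M18_b exceeded every APC Min/+ mouse, and the APC Min/+ mouse M2_A exceeded the other 3 WT mice. This gave a log2 fold change of -3.09 (SE 0.82).

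Both members that are 7SK copies were near the floor of detection everywhere but in a few WT mice. A closer copy, *Gm23037*, which matched 296 of the 331 bases of *Rn7sk*, was not a member and did not share this pattern. It had 35 counts in 7 mice, was highest in the APC Min/+ mouse M10_2 (0.0555 CPM) and was at 0 in M17_1. *Gm26035* had a raw count of 2 in the APC Min/+ mouse M8_2 and 0 in the other 5. WT mice had 2 counts each in M17_2, M19_1 and M16_1, 32 in M18_2a, 52 in M17_1 and 10 in M18_b. It passed the filter of at least 10 counts in at least 3 mice through these last 3 WT mice alone. The ratio of the summed levels, WT over APC Min/+, was 68.1 on 100 against 2 counts, with an exact 95% interval of 18.4 to 570 for counting error only. With the counts halved to 50 against 1, the interval ran from 11.7 to 2742. Both intervals pool the mice of each genotype, leave out the differences between mice and are no test of genotype.

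*Gm24146* did not pass the filter. It had 2 counts in the APC Min/+ mice M8_2 and M20_1 and 0 in the other 4. In WT mice it had 2 counts in M17_2, 6 in M19_1, 2 in M16_1, 28 in M18_2a, 64 in M17_1 and 6 in M18_b. The summed ratio, WT over APC Min/+, was 36.8 (exact 95% interval 13.9 to 137 for counting error in the pooled counts only, without the differences between mice). Set against *Rn7sk* itself, *Gm26035* took 1.42% of the counts on both genes in M17_1 (exact 95% interval 1.07 to 1.86), 1.27% in M18_2a (0.871 to 1.79) and 1.71% in the other 4 WT mice together (0.980 to 2.76). The share in the 6 APC Min/+ mice was 0.236% (0.0286 to 0.849), which rests on 2 counts. *Gm24146* took 1.75% in M17_1, 1.11% in M18_2a and 0.471% in the APC Min/+ mice, the last on 4 counts. The intervals of the WT shares of *Gm26035* overlapped, while *Rn7sk* itself ranged from 1.17 to 33.1 CPM in these mice.

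The same held for proteins of the 7SK particle and P-TEFb. Of the 8 genes tested, 0 had an unadjusted p under 0.05, and their log2 fold changes lay between -0.20 and 0.13. *Larp7*, which binds and protects 7SK, stood at 22.7 ± 3.05 CPM in APC Min/+ and 22.7 ± 3.53 CPM in WT mice (SD, n = 6; FDR = 0.9998 from edgeR). *Mepce*, which caps 7SK, stood at 37.4 ± 2.95 and 35.5 ± 6.03 CPM (FDR = 0.920 from edgeR). The P-TEFb kinase *Cdk9* stood at 40.9 ± 5.65 and 37.4 ± 6.498 CPM (FDR = 0.910 from edgeR).

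*Vaultrc5*, the vault RNA (143 bp, chromosome 18), stood at 0.267 CPM in M8_2, 0.202 in M10_2, 0.0802 in M18_2b, 0.110 in M13_1, 0.105 in M2_A and 0.255 in M20_1. Its WT values were 0.299 CPM in M17_2, 0.115 in M19_1, 0.209 in M16_1, 1.09 in M18_2a, 3.92 in M17_1 and 0.686 in M18_b. In *Vaultrc5*, 4 WT mice exceeded every APC Min/+ mouse, M17_2 by a small margin, and M19_1 was lower than 3 of the APC Min/+ mice. Its log2 fold change was -2.62 (SE 0.76). M17_1 was 3.61 times as high as M18_2a. *Mvp*, the major shell protein of the vault, stood at 305 ± 92.5 and 320 ± 94.3 CPM in APC Min/+ and WT mice (SD, n = 6; FDR = 0.964 from edgeR). The log2 fold changes of all 3 vault protein genes lay between -0.07 and 0.11.

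*Gm22513*, the U1-like gene, separated the genotypes in all 12 mice, but 1 library set the size of its difference. Its values in APC Min/+ mice were 0.0923 CPM in M8_2, 0.0505 in M10_2, 0.0602 in M18_2b, 0.133 in M13_1, 0.0841 in M2_A and 0.102 in M20_1. Its WT values were 0.635 CPM in M17_2, 0.192 in M19_1, 0.167 in M16_1, 0.428 in M18_2a, 6.37 in M17_1 and 0.710 in M18_b. M17_1 was 14.9 times as high as M18_2a, although those mice were equal for *Rmrp*. Unlike the other members, *Gm22513* was higher in M17_2 and M18_b than in M18_2a. Its log2 fold change was -4.04 (SE 0.91), and -2.29 without M17_1.

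*Terc* did not follow the others. It stood at 0.0462 CPM in M8_2, 0.136 in M10_2, 0.0602 in M18_2b, 0.0221 in M13_1, 0.105 in M2_A and 0.0128 in M20_1. The WT values were 0 in M17_2, 0.125 in M19_1, 0.0209 in M16_1, 0.125 in M18_2a, 0.157 in M17_1 and 0.0122 in M18_b. The genotypes overlapped over nearly their whole range, and 2 APC Min/+ and 3 WT mice had fewer than 3 counts. The log2 fold change was -0.22 (SE 0.70), smaller than its SE, and a difference was not detectable at this depth. Of the 8 genes of the telomerase particle, 1 had an unadjusted p under 0.05, *Naf1*, an assembly factor of this class of particles, at 10.16 ± 6.27 CPM in APC Min/+ and 5.71 ± 1.81 CPM in WT mice (SD, n = 6; log2 fold change 0.83, SE 0.36, FDR = 0.908 from edgeR). The catalytic subunit *Tert* stood at 2.19 ± 0.830 and 2.296 ± 0.547 CPM (FDR = 0.968 from edgeR).

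**Figure D1:**
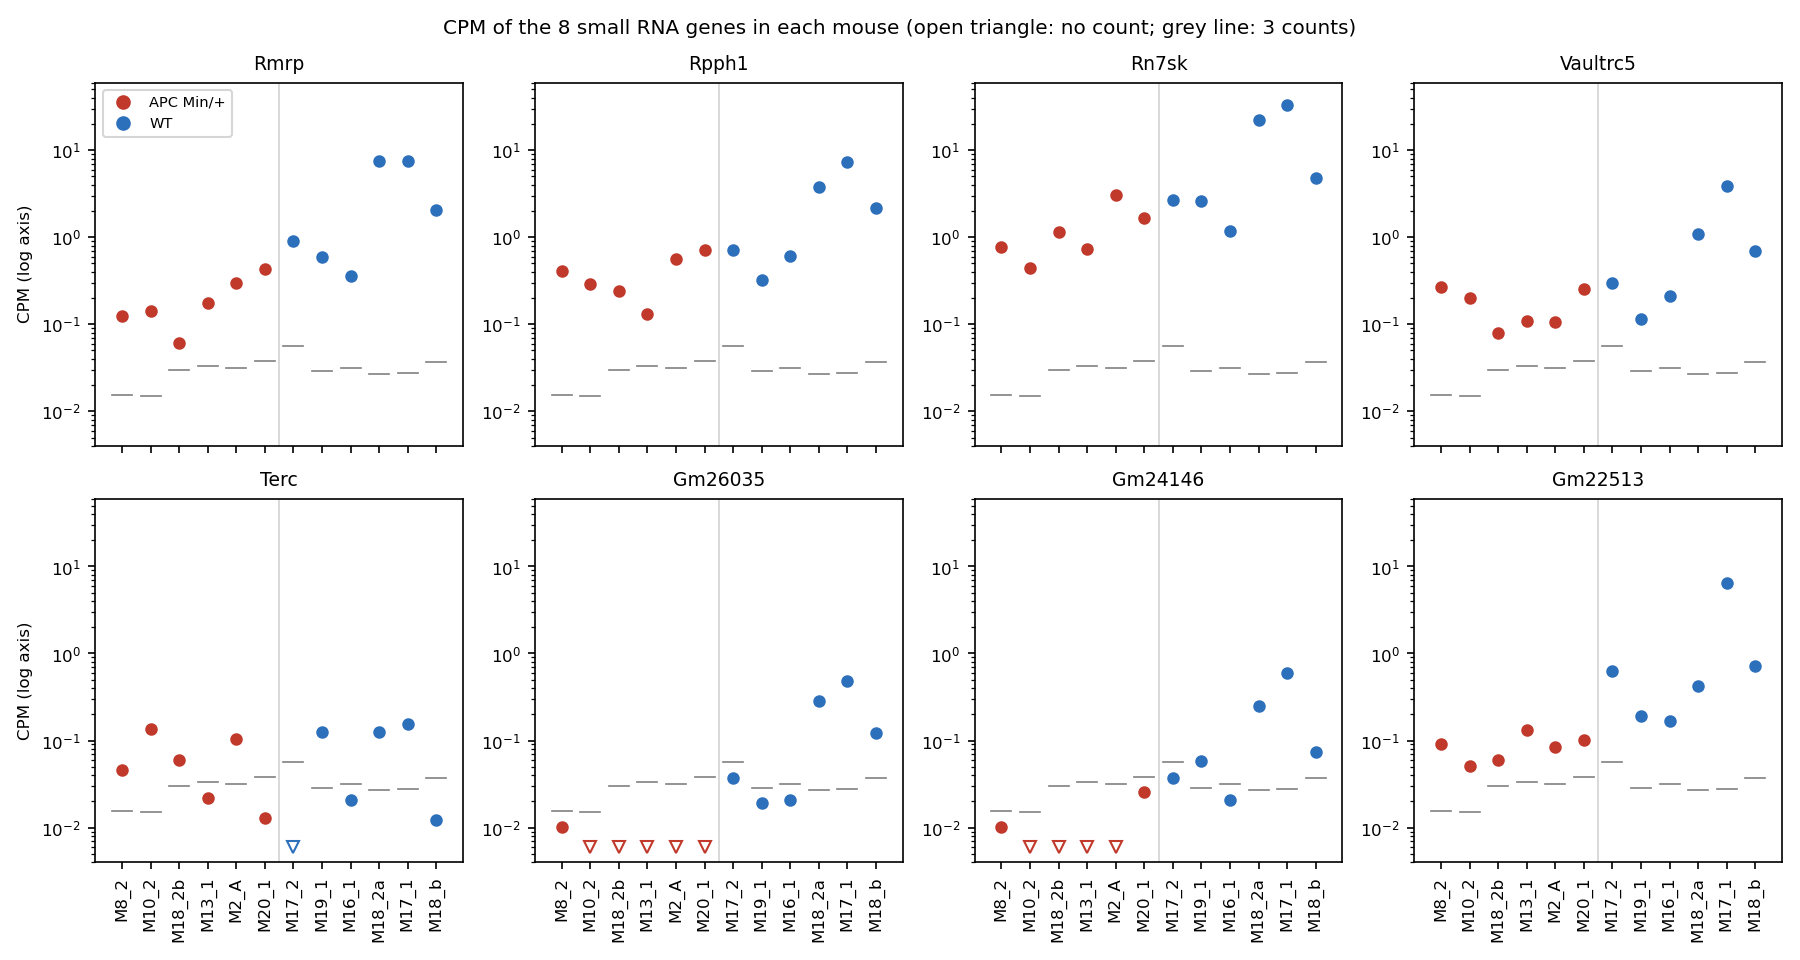
CPM of each gene on a log axis (y) in each of 12 mice (x), with APC Min/+ mice in red and WT mice in blue; a grey line marks the level of 3 counts in that library and an open triangle marks a count of 0. M18_2a, M17_1 and M18_b stand above the other mice in the panels of *Rmrp*, *Rpph1*, *Rn7sk*, *Vaultrc5* and both 7SK copies, but not in that of *Terc*.

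By edgeR's quasi-likelihood test with its FDR (under 0.05) and fold limits (2 or more), 0 of 20311 genes (0%) were DEGs, as were 0 of the 7 members that were tested. Without adjustment, 703 genes (3.46%) had a p under 0.05 and were higher in APC Min/+ mice, and 368 genes (1.81%) were lower. DESeq2 called 27 genes and edgeR's exact test 10. Whether members are among those 27 or 10 genes is not given here. The 0 for members is a result of the quasi-likelihood test alone. Among the 368 lower genes were 6 of the 7 tested members, which were chosen on this contrast, so nothing is read from this count. The groups did not overlap, with APC Min/+ lower, for 15 of 20311 genes (0.0739%), among them *Gm22513* and *Gm26035*.

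Most of each RNA other than *Terc* came from a pair of WT mice. M17_1 was the highest of the 12 libraries for 7 members and M18_2a for the other, *Rmrp*. M18_b was among the 3 highest for 7 members. Of the CPM summed over 12 mice, M17_1 and M18_2a together held 74.5% for *Rmrp*, 64.3% for *Rpph1*, 74.3% for *Rn7sk*, 68.3% for *Vaultrc5*, 78.4% for *Gm26035*, 78.8% for *Gm24146* and 75.3% for *Gm22513*. For *Terc* they held 34.2%. The median over all genes tested was 17.02%, close to the 2 of 12 libraries that they are. Neither library was unusual in depth, at 110000524 and 117477400 counts against a median of 97592282 over the 12.

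**Figure D2:**
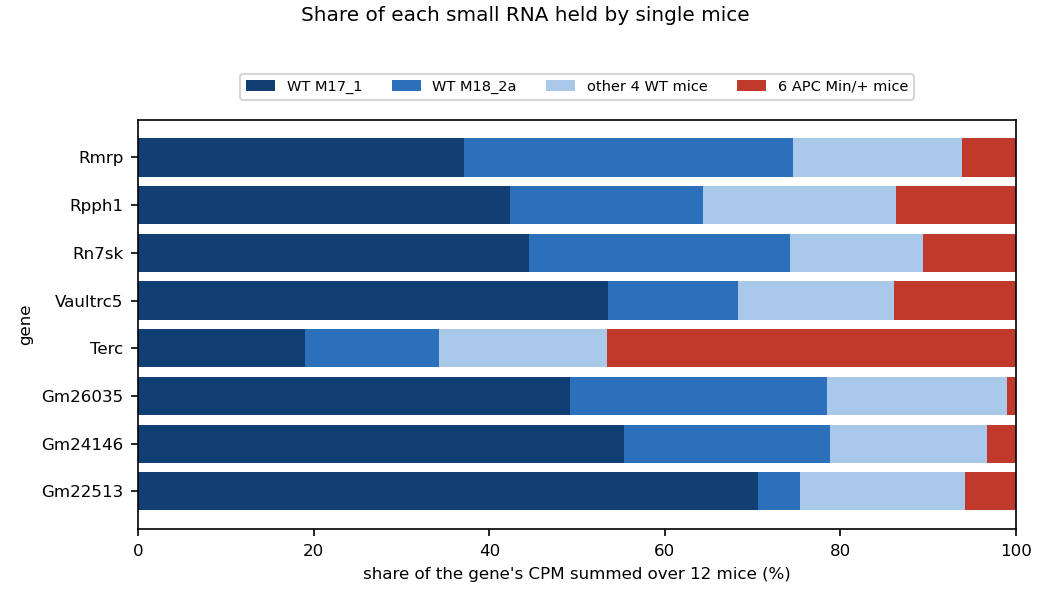
Share of each gene's CPM summed over 12 mice (x, in percent), split into M17_1, M18_2a, the other 4 WT mice and the 6 APC Min/+ mice, for each gene (y). M17_1 and M18_2a hold between 64.3% and 78.8% for the 7 genes other than *Terc*, where they hold 34.2%.

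Without M17_1 and M18_2a the differences of the 7 members other than *Terc* were smaller and kept their direction. The log2 fold change was -2.29 (SE 0.56) for *Rmrp*, -1.29 (SE 0.55) for *Rpph1* and -1.13 (SE 0.52) for *Rn7sk*. It was -0.93 (SE 0.51) for *Vaultrc5* and -2.297 (SE 0.47) for *Gm22513*. The difference of *Rn7sk*, 8.52-fold with all mice, was then 2.19-fold, and that of *Rmrp* went from 15.7-fold to 4.87-fold. *Terc* changed sign, to 0.56 (SE 0.82). The fitted value of *Gm26035* went from -5.50 to -3.84 (SE 0.98) and that of *Gm24146* from -4.75 to -2.89 (SE 0.94), which rest on 2 and 4 counts in APC Min/+ mice and depend on the prior count of the fit.

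Leaving out the APC Min/+ libraries with high *Hoxb13* moved the values less. Without M10_2 and M13_1 the log2 fold change was -3.83 for *Rmrp*, -2.37 for *Rpph1*, -2.74 for *Rn7sk*, -2.56 for *Vaultrc5* and -4.06 for *Gm22513*. With all 4 of these libraries left out it was -2.15 (SE 0.66) for *Rmrp*, -0.999 (SE 0.55) for *Rpph1*, -0.78 (SE 0.48) for *Rn7sk*, -0.86 (SE 0.58) for *Vaultrc5* and -2.297 (SE 0.53) for *Gm22513*. In the remaining 8 mice *Rmrp* and *Gm22513* kept larger fold changes than *Rn7sk*, *Rpph1* and *Vaultrc5*. The members were chosen on this contrast and this fit was added after the values were seen, so these values are a description and no test.

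**Figure D3:**
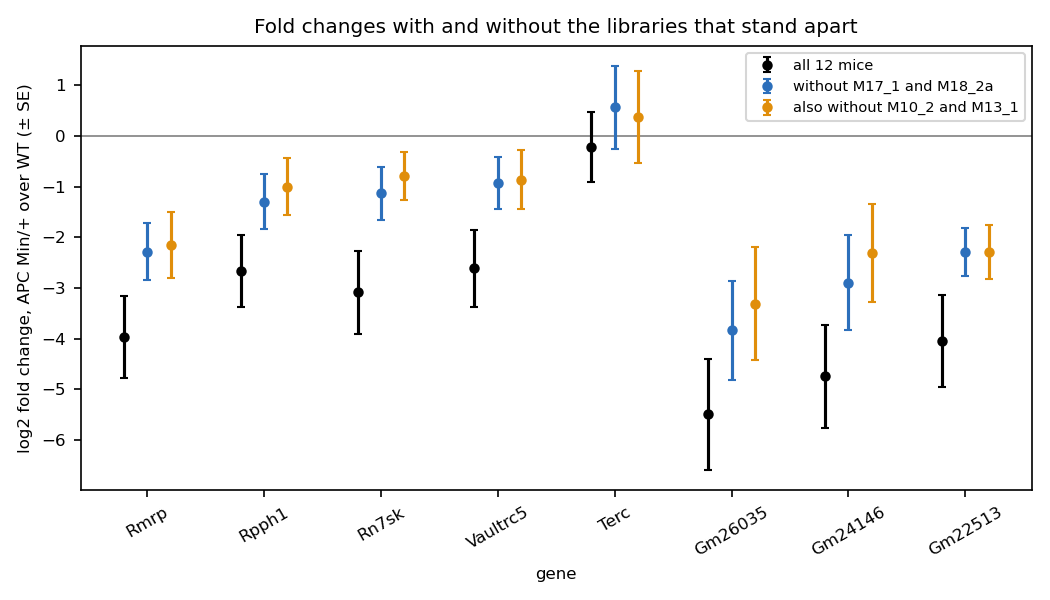
Log2 fold change of APC Min/+ over WT with its SE (y) for each gene (x), fitted on all 12 mice (black), without the WT mice M17_1 and M18_2a (blue), and also without the APC Min/+ mice M10_2 and M13_1 (orange). *Rn7sk* goes from -3.09 to -1.13 and -0.78, *Gm22513* from -4.04 to -2.297 in both other fits.

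The members varied together in WT mice and far less in APC Min/+ mice. Levels were taken as log2(CPM + 0.05). Among the 21 pairs without *Terc*, Pearson's r over the 6 WT mice lay between 0.71 and 0.98 with a median of 0.92. Over the 6 APC Min/+ mice it lay between -0.28 and 0.73 with a median of 0.34. The closest pairs in WT mice included *Rmrp* with *Rn7sk* (r = 0.98) and *Rpph1* with *Vaultrc5* (r = 0.98), genes on different chromosomes with different particles. The lowest pair without *Terc* in WT mice was *Rmrp* with *Gm22513* (r = 0.71). *Terc* correlated with the other 7 at 0.31 to 0.74 in WT mice and at -0.78 to 0.01 in APC Min/+ mice.

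These correlations were lower without the same WT pair. Over the 4 WT mice left, too few for more than a description, the median r of the 21 pairs was 0.81, against 0.92 over 6. With genotype means subtracted, the median r over the 21 pairs without *Terc* was 0.86 over 12 mice, and 0.61 over the 10 mice without M17_1 and M18_2a. All 21 stayed above 0 in both. The points share library, depth and the TMM scaling, and the values in APC Min/+ mice are close to the floor of detection for the 7SK copies. Raw counts in APC Min/+ mice were also low for *Rmrp* (6 to 34), *Vaultrc5* (8 to 52) and *Gm22513* (6 to 18), and spanned a narrower range than in WT mice. Whether co-variation differs between genotypes was not tested. The study had grouped most members by correlation, so no p is given.

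**Figure D4:**
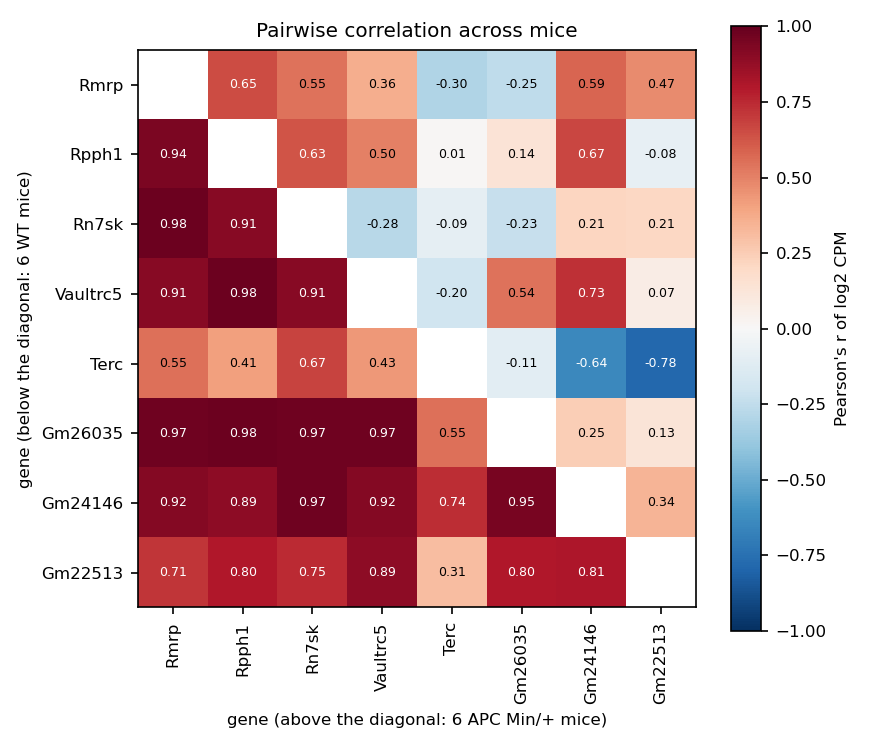
Pearson's r of log2(CPM + 0.05) between each pair of genes (x and y), over the 6 WT mice below the diagonal and the 6 APC Min/+ mice above it, with the color scale from -1 to 1. WT values without *Terc* lie between 0.71 and 0.98, and APC Min/+ values between -0.28 and 0.73.

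The share of counts on the 37 mitochondrially encoded (mt-) genes was compared next, since M17_1 also had the highest mt- share, 12.7%. The share was 6.06 ± 1.53% in APC Min/+ and 7.93 ± 2.50% in WT mice (SD, n = 6). It was below the WT median in 5 of 6 APC Min/+ mice, and the genotypes' difference in log2 share, -0.37, did not pass an exact permutation test (two-sided p = 0.115, with 0.0022 the smallest possible). M18_2a, at 8.08%, was close to the APC Min/+ mouse M2_A at 8.46%, although its *Rn7sk* was 22.1 CPM against 3.09 CPM.

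All 8 members correlated positively with the log2 mt- share over 12 mice once genotype means were subtracted, with r between 0.30 and 0.78. Of the 8 relations, 2 passed after Benjamini-Hochberg adjustment in a permutation test within genotypes. These were *Rn7sk* (r = 0.78, permutation p = 0.0028, adjusted p = 0.0224; Spearman's rho = 0.83, permutation p = 0.0023, adjusted p = 0.0182) and *Rpph1* (r = 0.74, permutation p = 0.0056, adjusted p = 0.0224; rho = 0.71, permutation p = 0.0152, adjusted p = 0.0610). Leaving out M10_2 and M17_1, the mice farthest from the median share, r was 0.57 for *Rn7sk*, 0.62 for *Rpph1* and -0.19 for *Gm22513*, so that the relation of *Gm22513* rests on these mice. Without M17_1 and M18_2a, 0 of 8 relations passed.

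Within APC Min/+ mice *Rn7sk* followed the mt- share in the same order in all 6 mice. The lowest shares were those of M10_2 and M13_1 (4.92%, with 0.729 CPM of *Rn7sk*), the libraries with high *Hoxb13*. The relation within APC Min/+ mice was not computed without both of them. From M10_2 with 4.35% and 0.444 CPM to M2_A with 8.46% and 3.09 CPM, r was 0.99 (exact permutation p = 0.0014, adjusted p = 0.0111 over 8 members; rho = 1, exact permutation p = 0.0028, adjusted p = 0.0222). Without M10_2 and M2_A, r over the remaining 4 mice was 0.99. No other member came close in these mice, *Rpph1* being next (r = 0.68, exact permutation p = 0.143) and *Vaultrc5* lowest (r = -0.23, exact permutation p = 0.644). In WT mice the r of *Rn7sk* was 0.72 (exact permutation p = 0.0861), and 0.33 without M17_2 and M17_1. Whether the relation differs between genotypes was not tested.

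**Figure D5:**
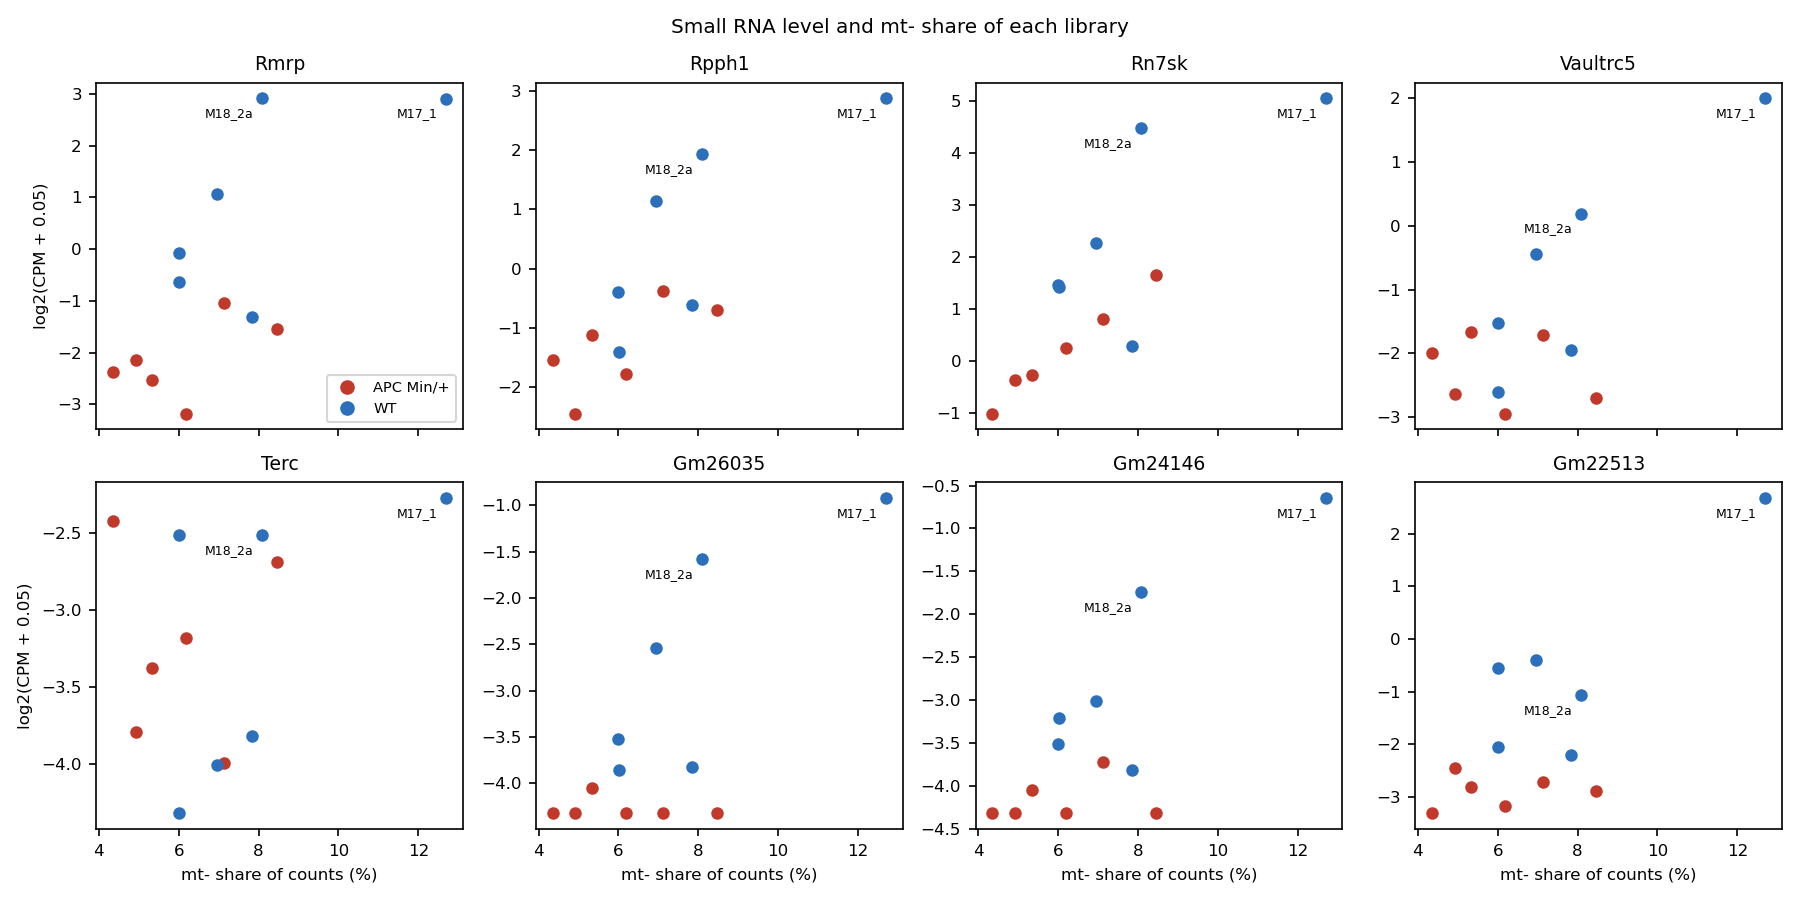
Log2(CPM + 0.05) of each gene (y) against the mt- share of counts in percent (x), with APC Min/+ mice in red and WT mice in blue. The 6 red points of *Rn7sk* rise in order from 4.35% to 8.46%, and M17_1 stands alone at 12.7% in all panels.

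Other classes of small RNA were examined to see whether these libraries held more of them too. Summed without the members, scaRNAs, which guide modification of spliceosomal RNAs, stood at 2.65 ± 0.395 CPM in APC Min/+ and 4.43 ± 1.87 CPM in WT mice (SD, n = 6). All 6 APC Min/+ mice were below the WT median, and M17_1 and M18_2a were again highest, at 7.65 and 5.68 CPM. The log2 difference was -0.66 (exact permutation p = 0.0130, adjusted p = 0.0779 over 6 classes). The snoRNA sum (log2 difference -0.19, exact permutation p = 0.145) and the snRNA sum (-0.21, exact permutation p = 0.299) also had M17_1 as their highest library. For misc_RNA and ribozyme genes the log2 difference was -0.15 (exact permutation p = 0.649) and for miRNA genes -0.79 (exact permutation p = 0.227). The misc_RNA and ribozyme sum was also highest in M17_1, at 26.5 CPM, and stood at 17.8 CPM in M18_2a. Between them were M13_1 (23.2 CPM) and M10_2 (21.2 CPM), the APC Min/+ libraries with high *Hoxb13*. No other mouse was above 7.31 CPM. Adjusted p for the 5 classes other than scaRNA lay between 0.290 and 0.649. Histone mRNAs, taken by symbol as replication-dependent genes whose mRNAs also lack poly(A) tails, were not highest in these libraries. They stood at 309 ± 57.7 CPM in APC Min/+ and 258 ± 33.4 CPM in WT mice (SD, n = 6; log2 difference 0.25, exact permutation p = 0.0996), with M17_1 at 221 CPM among the lowest.

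Over 12 mice, 6 of the 48 relations between a member and a class sum passed after adjustment, all of them with scaRNAs. The r was 0.90 for *Rmrp*, 0.89 for *Rpph1*, 0.91 for *Rn7sk*, 0.85 for *Vaultrc5*, 0.89 for *Gm26035* and 0.91 for *Gm24146*, with adjusted permutation p between 0.0152 and 0.0453. By Spearman's rho 1 of these passed, that of *Rmrp* (rho = 0.92, permutation p = 0.0005, adjusted p = 0.0235). Leaving out M17_1 and M18_2a, r was 0.74 for *Rmrp*, 0.69 for *Rpph1*, 0.67 for *Rn7sk* and 0.33 to 0.36 for the other 3, and 0 of 48 passed.

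Genes that collect reads of ribosomal RNA were high in a partly different set of libraries. The sum over *Gm42418*, *Mir6236*, *Gm15564*, *Gm23935*, *Gm24270* and *Lars2*, chosen after the values were seen, was highest in M18_2a (22185 CPM), followed by the APC Min/+ mouse M20_1 (13867 CPM) and M18_b (13252 CPM). M17_1 stood at 5600 CPM. M20_1 had 0.434 CPM of *Rmrp* and 1.69 CPM of *Rn7sk* and was the highest APC Min/+ mouse for *Rmrp* and *Rpph1*. With genotype means subtracted, the sum correlated over 12 mice with *Rmrp* at r = 0.72 (permutation p = 0.0103, adjusted p = 0.0824 over 8 members; rho = 0.81, permutation p = 0.0051, adjusted p = 0.0204). For *Rn7sk* r was 0.60 (permutation p = 0.0438, adjusted p = 0.121; rho = 0.82, permutation p = 0.0046, adjusted p = 0.0204), and for *Rpph1* it was 0.61 (permutation p = 0.0456, adjusted p = 0.121; rho = 0.71, permutation p = 0.0236, adjusted p = 0.0628). Thus 0 of 8 relations passed by r and 2 by rho. The other 5 lay between -0.07 for *Terc* and 0.48 for *Gm24146*. Without M20_1 and M18_2a, the mice farthest from the median sum, r was 0.63 for *Rmrp*, 0.59 for *Rn7sk* and 0.53 for *Rpph1*.

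The genes whose pattern was most like that of the members were led by 7SL genes. Likeness was taken as r with the mean standardized pattern of the 7 tested members over 12 mice, with genotype means subtracted, among 20304 other genes whose median r was 0.09. The 8 closest were *Rn7s6* (r = 0.96), *Mtm1* (0.94), *Gnat2* (0.93), *Rn7s1* (0.92), *Rn7s2* (0.92), *Sil1* (0.92), *Dcun1d2* (0.92) and *Gm24447* (0.91). The size of the variation differed widely among them. *Mtm1*, a lipid phosphatase, ranged from 80.4 to 129 CPM over all mice, whereas *Rn7s2* ranged from 0.0707 to 7.26 CPM. Of the 50 closest genes, 34 were protein coding, of 16057 tested, and 5 were misc_RNA genes, of 29 tested. The 29 include members, which were not ranked. With the members left out, 25 misc_RNA and ribozyme genes were tested.

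7SL, the RNA of the signal recognition particle, is another Pol III transcript. *Rn7s2* stood at 0.230 ± 0.187 CPM in APC Min/+ and 2.22 ± 2.77 CPM in WT mice (SD, n = 6; log2 fold change -3.32, SE 0.87, FDR = 0.908 from edgeR), with 7.26 CPM in M17_1 and 3.60 CPM in M18_2a. *Rn7s1* (log2 fold change -3.33, SE 0.87, FDR = 0.908 from edgeR) has the same sequence over its 300 bases, so these are not separate measurements. *Rn7s6* stood at 0.0352 ± 0.0317 and 0.333 ± 0.368 CPM in the same order. M17_1 and M18_2a held 73.8% of the summed CPM of *Rn7s2*, near their share of *Rn7sk*.

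The rest of the Pol III transcripts could hardly be measured. Of 189 genes of this list in the tables, 42 had a count and 7 were tested. Of these, 3, the 7SL genes *Rn7s1*, *Rn7s2* and *Rn7s6*, had an unadjusted p under 0.05 and were lower in APC Min/+ mice. The other 4 were 5S ribosomal RNA genes, with log2 fold changes from -0.45 to 0.81. They did not share the pattern. *n-R5s197* stood at 0.179 ± 0.0725 CPM in APC Min/+ and 0.118 ± 0.0650 CPM in WT mice (SD, n = 6; FDR = 0.908 from edgeR). The Y RNA genes *Rny1* and *Rny3* had 28 and 4 counts over all 12 mice.

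Genes of the Pol III machinery had small fold changes. All 31 genes for subunits and factors were tested, 0 had an unadjusted p under 0.05, and their log2 fold changes lay between -0.18 and 0.19 with a median of 0.00, against -0.01 over all genes tested. *Polr3a*, the largest subunit, stood at 21.5 ± 2.38 CPM in APC Min/+ and 21.5 ± 1.42 CPM in WT mice (SD, n = 6; FDR = 0.999 from edgeR). *Brf2*, a factor for the promoter type of 7SK, RNase P and RNase MRP, stood at 4.14 ± 1.05 and 4.08 ± 0.440 CPM (FDR = 0.985 from edgeR). *Maf1*, a repressor of Pol III, stood at 49.9 ± 3.20 and 50.2 ± 7.04 CPM (FDR = 0.991 from edgeR). Among 11 genes for signal recognition particle, Ro and La proteins, 0 had an unadjusted p under 0.05, and *Ssb*, the La protein that binds the ends of new Pol III transcripts, stood at 129 ± 19.6 and 131 ± 14.4 CPM (FDR = 0.980 from edgeR).

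Long nuclear RNAs had smaller fold changes than most members. *Malat1* stood at 485 ± 135 CPM in APC Min/+ and 672 ± 255 CPM in WT mice (SD, n = 6; log2 fold change -0.47, SE 0.25, FDR = 0.908 from edgeR), and was highest in M17_1 (1031 CPM) and M18_2a (951 CPM). *Neat1* stood at 861 ± 191 and 913 ± 348 CPM (FDR = 0.9504 from edgeR). Of the 7 genes of this list, 0 had an unadjusted p under 0.05.

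The genes that overlap the members or lie within 5000 bp of them showed small fold changes. Of 11 such genes, 9 were tested, 0 had an unadjusted p under 0.05, and the log2 fold changes lay between -0.28 and 0.10. *Ccdc107* overlaps *Rmrp* on the other strand, and reads from the overlap cannot be told apart unless strand was used in counting. It stood at 42.4 ± 11.1 CPM in APC Min/+ and 48.2 ± 3.91 CPM in WT mice (SD, n = 6; FDR = 0.910 from edgeR). *Parp2*, beside *Rpph1*, stood at 29.0 ± 2.81 and 28.7 ± 1.38 CPM (FDR = 0.975 from edgeR), and *C920006O11Rik*, 281 bp from *Rn7sk*, at 3.36 ± 0.453 and 3.33 ± 0.751 CPM (FDR = 0.990 from edgeR). The others tested were *Arhgef39*, *Ick*, *Zmat2*, *Gm21960*, *Eapp* and *Rpl31-ps17*. *Ccnb1ip1*, which overlaps *Rpph1* on the same strand, was too low to test. In M17_1, where *Rpph1* was at 7.31 CPM, *Parp2* was at 29.8 CPM and *Ccnb1ip1* at 0.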

How the data were processed

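RNA from the proximal colonic mucosa of 6 APC Min/+ and 6 WT mice was sequenced. The authors aligned reads with STAR (version 2.3.0 and build GRCm38.p2 per the submitters' processing notes), counted them per gene with featureCounts and deposited unnormalized counts and gene lengths for 38924 Ensembl genes per mouse. Handling of strand and of reads with several matches is not given in the sources used here.

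Symbols and biotypes came from GENCODE M21 (37607 genes matched). Total counts ranged from 50313805 to 197914821, and 3 counts were taken as the floor. The 20311 genes that reached 10 counts in 3 or more mice were compared with edgeR 4.0.16 (R 4.3.3), using TMM factors, the quasi-likelihood test and Benjamini-Hochberg adjustment, without a further covariate. DEGs needed a 2-fold change and an FDR under 0.05. *Gm24146* was taken from the fit without the filter. The scripts were tested on simulated data. Single values were compared by exact permutation over 924 relabelings, and relations by 100000 permutations within genotypes, both two-sided, after adding 0.05 to CPM. Exact intervals are Clopper-Pearson at 95%.

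The members and all gene lists were chosen with earlier results of these data known. Named genes were all members, their neighbours, listed key genes, list genes with the only unadjusted p under 0.05, and the 8 most similar genes. Alternatives were DESeq2 1.42.0, edgeR's exact test, other scalings, no filter, the title suffix as a covariate, halved counts, and fits without single or several mice. The mice are separate animals.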

Additional observations from a re-analysis of the deposited data

Results flagged for a closer look

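In 30 groups of 6 mice, made of the 2 genotypes for each member, for the mt- share and for the 6 class sums, 5 held a value far from the other 5 by Dixon's criterion, the gap to the nearest value over the whole range. The cutoff flags about 1 in 20 groups of independent, normally distributed values. These CPM values are skewed and the groups share mice, so no excess is read from the 5. The WT mouse M17_1 accounted for 3 of them. It stood at 3.92 CPM of *Vaultrc5*, with the next WT mouse at 1.09 CPM, at 6.37 CPM of *Gm22513*, with the next at 0.710 CPM, and at an mt- share of 12.7%, with the next at 8.08%. The APC Min/+ mouse M20_1 stood at 999 CPM of summed miRNA genes, with the next at 119 CPM. *Mir6236*, which collects reads of ribosomal RNA, held 41.9% of the counts of this class. The last was *Gm26035* in the APC Min/+ mouse M8_2, at 0.0103 CPM, where the other 5 mice had 0 counts and the value rests on 2 counts.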

How the results depend on the processing

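The number of DEGs was 0 in edgeR's quasi-likelihood test with TMM, DESeq2 size factors or total counts, without the filter and in each fit without 1 mouse, 10 with edgeR's exact test and 27 with DESeq2. Over 176 alternative fits the fold changes of the members kept their direction in 173. The 3 exceptions were all *Terc*, at 0.56 without M17_1 and M18_2a, 0.37 also without M10_2 and M13_1, and -0.63 to 0.12 in the fits without 1 mouse, the highest without M17_1. Without 1 mouse, *Gm22513* ranged from -4.27 to -2.29, *Vaultrc5* from -2.85 to -1.46, *Rpph1* from -2.90 to -1.94 and *Gm26035* from -7.08, without M8_2, to -4.77. The log2 difference in mt- share ranged from -0.48 to -0.23 without 1 mouse, and passed at 0.05 only without M2_A (exact permutation p = 0.0390). Relations of members with mt- share that passed numbered 4 with a pseudocount of 0.5 and 0 without M17_1 and M18_2a, where those with class sums also numbered 0, and the median r between members fell to 0.53. In the same fit the class sums of snRNA (0.034) and misc_RNA and ribozyme genes (0.42) changed sign, and the latter ranged from -0.43 to 0.13 without 1 mouse. The miRNA sum ranged from -1.34, without M20_1, to -0.53. The cause of these changes was not tested. The fits without all 4 mice, with halved counts, the DEG count on total counts and the classes of 7SL and ribosomal RNA genes were chosen after seeing the data. No paired analysis was possible because the genotypes share only 1 title number, 18 in M18_2b, M18_2a and M18_b.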

Other observations

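The 7SL genes, which were not members, had the pattern of the members in single mice. The sum was taken over the 6 genes that matched at least 80% of the bases of *Rn7s1*, of which 3 had counts. These were *Rn7s1* and *Rn7s2*, which have the same sequence, and *Gm24514*, while *Rn7s6* was not in the sum. The summed level was 13.7 CPM in M17_1, 7.84 in M18_2a and 2.65 in M18_b, and between 0.577 and 0.793 CPM in the other 3 WT mice. The APC Min/+ mice lay between 0.131 CPM in M10_2 and 0.971 CPM in M20_1. The log2 difference of the sum was -2.65 (exact permutation p = 0.0216, for a class added after the values were seen), and all 6 APC Min/+ mice were below the WT median. With genotype means subtracted the sum correlated with *Rn7sk* at r = 0.94 over 12 mice, and at 0.84 without M17_1 and M18_2a, and with *Terc* at r = 0.29.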
